A study of Homo sapiens with 12 samples.

Results

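The aminoacyl-tRNA synthetases are the enzymes that load each transfer RNA with its amino acid, and 36 of them were followed here together with the 2 scaffold proteins AIMP1 and AIMP2, 38 genes of the 48162 listed in the count tables. The members were chosen by name: 20 encode cytosolic synthetases or their subunits, 16 encode mitochondrial synthetases, and 2 encode scaffolds of the multi-tRNA synthetase complex. Each was found by its Ensembl identifier, 18 of them under an older symbol in the annotation used for names (AARS for AARS1, for example). All 38 passed the expression filter, which left 15630 genes for testing. The measurements come from T84, a cell line from a human colon carcinoma whose cells form an epithelial sheet in culture. Confluent cultures were moved from medium into Hanks buffered saline, a salt and glucose solution that in its standard recipe holds no amino acids, and were then lysed for RNA sequencing. There were 4 groups of 3 libraries: pH 7.4 for 3 h, pH 7.4 for 6 h, pH 6.0 for 3 h and pH 6.0 for 6 h. All groups had been moved into saline, and cells left in culture medium are not analysed here, so each comparison is between 2 saline conditions.

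A synthetase joins an amino acid to the end of its matching tRNA at the cost of ATP, and the loaded tRNA is handed to elongation factor 1A and carried to the ribosome. Mitochondria translate the few proteins of their own genome with a separate set of tRNAs, charged by a second set of nuclear-encoded synthetases whose symbols end in 2, while GARS1 and KARS1 serve both compartments from 1 gene each. When amino acids run short, uncharged tRNA activates the kinase GCN2, translation initiation slows, and the transcription factor ATF4 is made and raises a program of amino acid transporters, biosynthetic enzymes and many of the cytosolic synthetases. Of the cytosolic members, 12 are listed as known ATF4 targets (AARS1, CARS1, EPRS1, GARS1, IARS1, LARS1, MARS1, NARS1, SARS1, TARS1, WARS1 and YARS1). The list was chosen here with earlier results of these data known. Its contrast with the other cytosolic members is therefore a description and no independent test. This background was not measured here beyond mRNA.

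Libraries held between 13912532 and 24331032 counts, and expression varied between replicates with a common biological coefficient of variation of 9.29%. Whether the 3 libraries of each condition stem from separate cultures is not labelled, so the p-values refer only to library-to-library spread, which may be technical. All 14 colon epithelium markers were present in every group, with a summed level of 10171.8 to 13646.4 CPM (counts scaled to library size), which was higher in both pH 6.0 groups than in both pH 7.4 groups. Leukocyte markers summed to 8.46 to 12.4 CPM and endothelial markers to 9.55 to 13.7 CPM. Fibroblast markers summed to 8.15 to 11.9 CPM in 11 libraries and to 33.6 CPM, led by COL1A1, in replicate 2 of pH 7.4 at 6 h. Mitochondrially encoded mRNA took 7.14% to 10.6% of the counts, with its lowest values, 7.14% to 7.40%, in the 3 libraries of pH 6.0 at 6 h. The part of these differences in the results below was not tested, apart from the fits without single libraries. In bulk RNA, fewer cells with a transcript and less of the transcript per cell cannot be told apart.

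As a group, the cytosolic synthetase mRNAs were more abundant than the mitochondrial ones. Levels between genes are compared in RPKM, the unit of the authors that scales reads to gene length and library size. At pH 7.4 and 3 h, AARS1, the alanyl enzyme, was highest at 163 ± 5.96 RPKM (SD, n = 3), followed by GARS1, the glycyl enzyme, at 121 ± 10.7 and SARS1, the seryl enzyme, at 94.6 ± 6.41. QARS1 at 81.5 ± 7.18 RPKM and KARS1 at 74.5 ± 6.00 RPKM, the glutaminyl and lysyl enzymes, came next and did not differ beyond their spread. YARS1, EPRS1, TARS1, MARS1 and IARS1 lay together between 48.8 and 52.5 RPKM, with no separation between neighbours. The lowest cytosolic member was TARS3, a second cytosolic threonyl enzyme, at 3.83 ± 0.52 RPKM, against 49.3 ± 2.05 RPKM for TARS1.

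Among the mitochondrial enzymes at pH 7.4 and 3 h, IARS2, the isoleucyl enzyme, led at 42.5 ± 2.78 RPKM, followed by RARS2, the arginyl enzyme, at 27.2 ± 1.49 RPKM. YARS2 stood at 15.7 ± 1.90 RPKM, and most others lay between 5.66 and 13.0 RPKM. PARS2, the prolyl enzyme, had 3.65 ± 0.27 RPKM. SARS2, the seryl enzyme, was listed near 0, with 0.136 to 0.873 CPM in the 12 libraries. In the annotation used for names, 46.2% of the exon bases of SARS2 also belong to another gene on the same strand, and how such reads were counted is not given in the sources used here, so SARS2 is not described further.

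Summed over the 20 cytosolic genes, the level was 1119.9, 1026 and 1082 RPKM in the libraries of pH 7.4 at 3 h, and 1316, 1284 and 1323 RPKM at 6 h. In the libraries of pH 6.0 it was 953, 972 and 940.5 RPKM at 3 h, and 1019, 977 and 962 RPKM at 6 h. The pH 7.4 libraries at 6 h thus lay above every other library. Summed over the 16 mitochondrial genes, the means were 197 ± 9.01 RPKM (pH 7.4, 3 h), 192 ± 3.94 (pH 6.0, 3 h), 172 ± 4.43 (pH 7.4, 6 h) and 182 ± 7.23 (pH 6.0, 6 h), all SD with n = 3. RPKM scales to total counts, while CPM here use the scaling of the tests and not gene length. In CPM the cytosolic sums were 3402 ± 179, 3122 ± 53.9, 4430 ± 83.6 and 3407 ± 114 in that order. The mitochondrial sums were 573 ± 23.8, 582 ± 7.83, 532 ± 14.8 and 587 ± 29.4 CPM. In CPM the cytosolic means of pH 7.4 at 3 h and pH 6.0 at 6 h were thus level, while in RPKM the latter was lower. The ratio of the cytosolic to the mitochondrial sum of RPKM was 5.48 ± 0.131 at pH 7.4 and 3 h and 7.62 ± 0.128 at pH 7.4 and 6 h. At pH 6.0 it was 4.96 ± 0.0202 at 3 h and 5.42 ± 0.158 at 6 h, and the libraries of the latter, at 5.28 to 5.59, overlapped those of pH 7.4 at 3 h, at 5.39 to 5.63. The mean log2 CPM of cytosolic members minus that of mitochondrial ones, which weighs each gene alike, did not overlap between these groups. It was 2.61 to 2.65 at pH 6.0 and 6 h, and 2.39 to 2.41 at pH 7.4 and 3 h. This mean takes in PARS2 and SARS2, the mitochondrial members with the least mRNA.

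**Figure D1:**
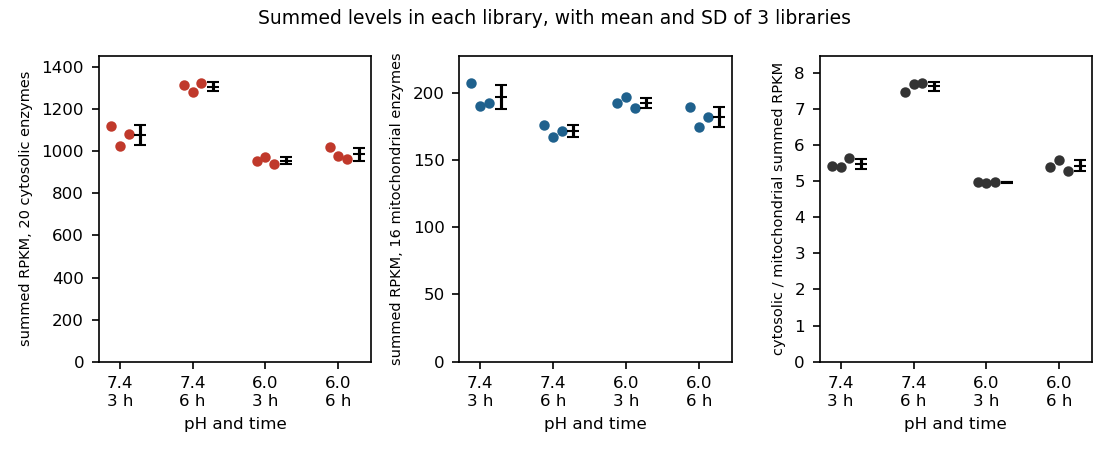
Summed RPKM of the 20 cytosolic (left) and 16 mitochondrial (middle) synthetase genes and their ratio (right) by pH and time in saline; dots are libraries, bars the mean and SD of 3 libraries. The ratio sits between 7.47 and 7.71 in the pH 7.4, 6 h libraries and between 4.94 and 5.63 in the other 9.

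From 3 h to 6 h in neutral saline, the cytosolic synthetase mRNAs listed as ATF4 targets rose together. All 12 were higher at 6 h, by log2 0.21 to 0.71, and in each the 3 libraries at 6 h lay above the 3 at 3 h, which was so for 22.7% of all tested genes. Over all 20 cytosolic members 12 were higher and 2 lower (edgeR adjusted p under 0.05), where 17.2% of all tested genes were called higher and 14.4% lower. The median log2 change was 0.57 in the 12 listed targets, -0.08 in the 8 other cytosolic members (-0.03 with a correction for gene length and -0.15 under scaling by total counts) and -0.02 over all genes tested.

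WARS1, the tryptophanyl enzyme, had 127, 110.2 and 119 CPM at 3 h and 192, 192 and 201 CPM at 6 h, a log2 change of 0.71 ± 0.08 (SE; adjusted p = 4.09e-07). EPRS1, a single protein that charges both glutamate and proline tRNAs, had 251, 231 and 251 CPM at 3 h and 383, 354 and 402 CPM at 6 h (0.64 ± 0.08; 3.41e-06). GARS1 had 330.0, 273 and 319 CPM at 3 h and 474, 455 and 488 CPM at 6 h (0.62 ± 0.08; 6.87e-06). In these members the level at 6 h was 1.54 to 1.64 times that at 3 h, with no overlap. CARS1, the cysteinyl enzyme, had 148, 158 and 159 CPM at 3 h and 227, 229 and 242 CPM at 6 h (0.59 ± 0.07; 2.03e-06). SARS1 had 184, 161 and 170.2 CPM at 3 h and 262, 268 and 242 CPM at 6 h (0.58 ± 0.08; 6.21e-06). IARS1 at log2 0.59 ± 0.08, MARS1 at 0.56 ± 0.07, TARS1 at 0.46 ± 0.07, YARS1 at 0.44 ± 0.08 and AARS1 at 0.40 ± 0.08 followed, and the leucyl enzyme LARS1 rose by 0.30 ± 0.08. The smallest rise was that of NARS1, the asparaginyl enzyme, at 0.21 ± 0.08 (adjusted p = 0.0465). Its call was lost in 11 of the 12 fits that left out 1 library, with adjusted p up to 0.201; those of the other 11 rising members held in all 12.

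**Figure D2:**
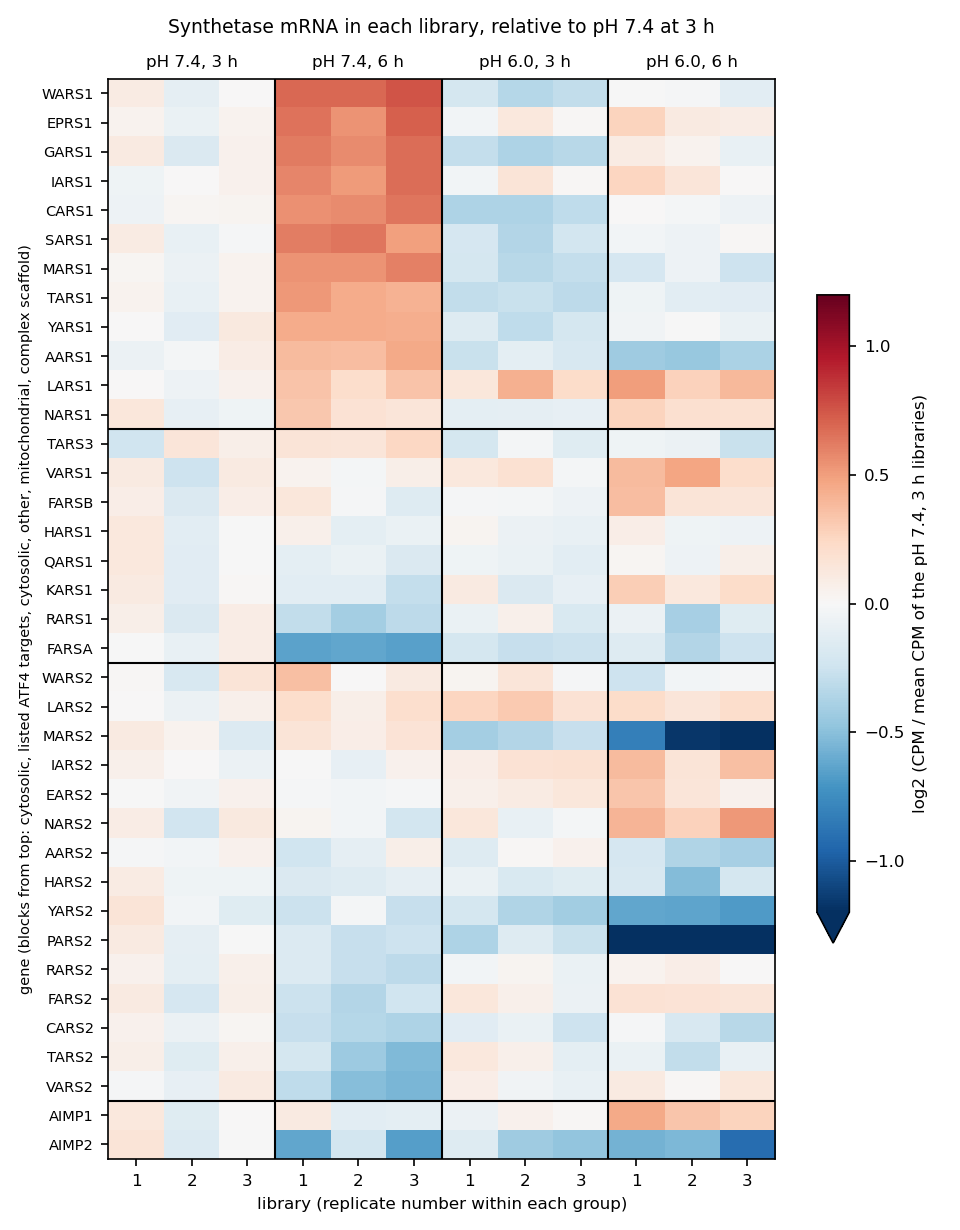
Colour shows, for 37 members and each of the 12 libraries, log2 of the CPM over the mean CPM of the pH 7.4, 3 h libraries (red higher, blue lower; SARS2, near 0, is left out); PARS2 at pH 6.0 and 6 h lies past the end of the scale. The upper block of 12 cytosolic genes is red in the pH 7.4, 6 h libraries, with WARS1 at 192 to 201 CPM against 110.2 to 127 CPM at 3 h.

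None of the 8 other cytosolic members was called higher with time in neutral saline. FARSA, the alpha subunit of the phenylalanyl enzyme, had 49.6, 46.8 and 52.8 CPM at 3 h and 31.9, 32.3 and 31.8 CPM at 6 h, a fall of log2 -0.64 ± 0.09 (adjusted p = 9.12e-06). FARSB, the beta subunit of the same enzyme, had 73.3 ± 7.27 and 72.9 ± 7.30 CPM (SD, n = 3) and did not pass (log2 -0.01 ± 0.09). Of the 2 genes for this enzyme, FARSA passed the test and FARSB did not; the difference between them was not tested. RARS1, the arginyl enzyme, fell by log2 -0.34 ± 0.09 (adjusted p = 0.00882), a call that was lost under a correction for gene length. HARS1, KARS1, QARS1, TARS3 and VARS1 did not pass, with log2 changes from -0.18 to 0.19. In TARS3 (0.19 ± 0.12; adjusted p = 0.251) the 3 libraries at 6 h nonetheless lay above the 3 at 3 h.

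Of the 16 mitochondrial members 0 were called higher in neutral saline by edgeR (0 also at an unadjusted p under 0.05 and 0 by DESeq2), and 5 of 16 were lower at 6 h than at 3 h, against the 14.4% of all genes called lower. VARS2, the valyl enzyme, had 44.6, 41.9 and 48.3 CPM at 3 h and 36.3, 31.5 and 30.7 CPM at 6 h (log2 -0.45 ± 0.09; adjusted p = 8.1e-04). TARS2 fell by -0.38 ± 0.11, CARS2 by -0.33 ± 0.10, FARS2 by -0.28 ± 0.11 and RARS2 by -0.25 ± 0.08. Of these, VARS2 kept its call in all 12 fits without a library. The count of 5 fell to 2 without replicate 1 and to 3 without replicate 3 of pH 7.4 at 3 h, and to 3 without replicate 2 and 1 without replicate 3 of pH 7.4 at 6 h. In the annotation used for names 21.99% of the exon bases of VARS2 also belong to GTF2H4 on the same strand. The scaffold AIMP2 had 34.5, 27.7 and 30.9 CPM at 3 h and 20.2, 26.6 and 19.6 CPM at 6 h (-0.49 ± 0.13; adjusted p = 0.00677), and AIMP1 had -0.05 ± 0.10. On the opposite strand, 28.9% of the exon bases of AIMP2 also belong to EIF2AK1 and 11.6% of those of AIMP1 to TBCK, and whether counting used strand is not given in the sources used here.

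Promoter sequence was examined for the C/EBP-ATF response element, the DNA motif through which ATF4 acts, since the listed targets moved together. The letters TGATGNAA were searched on both strands in the 250 bases before the start of each gene, in RefSeq sequences of GRCh38.p14, where 32 of the 38 members have an entry. They were present in 3 of 10 listed ATF4 targets with an entry (IARS1, AARS1 and GARS1), in 0 of 6 other cytosolic members, in 1 of 14 mitochondrial members (YARS2) and in 0 of 2 scaffolds. Among all 27305 genes with an entry 3.89% held them, and among the 10899 that were tested here 2.52%. The matches are given as 30 bases read on the strand of the gene, 5′ to 3′, with the motif in capitals; in IARS1, AARS1 and GARS1 it lies on the opposite strand, so its reverse complement is in capitals. By RefSeq's gene starts the motif begins 13 bases before IARS1, 187 before AARS1, 33 before GARS1 and 197 before YARS2. In the annotation used for names (GENCODE 29) the matches of IARS1 and GARS1 lie inside an exon of the gene itself, and that of AARS1 inside an exon of DDX19B on the opposite strand.
IARS1 (chr9:92293698-92293727, minus strand): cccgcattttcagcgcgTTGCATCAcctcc
AARS1 (chr16:70289675-70289704, minus strand): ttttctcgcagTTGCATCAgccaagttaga
GARS1 (chr7:30594834-30594863, plus strand): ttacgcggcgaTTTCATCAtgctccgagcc
YARS2 (chr12:32756076-32756105, minus strand): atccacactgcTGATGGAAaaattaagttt
In neutral saline from 3 h to 6 h IARS1, AARS1 and GARS1 rose, and YARS2 had a log2 change of -0.18 ± 0.10 (adjusted p = 0.195). All 12 listed targets rose then, and the list was chosen with earlier results of these data known. The rise of the 3 listed targets with a match is therefore no test of the motif. WARS1, EPRS1 and CARS1 rose by 0.59 to 0.71 and hold no match in this window. A match describes letters and not binding, and the second motif counted, CACGTG, was present in 4 of 32 members (IARS1, MARS2, EARS2 and AIMP2) and in 10.96% of tested genes.

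At 6 h the cells in acid saline had less mRNA of most ATF4-listed cytosolic synthetases than the cells in neutral saline. Of the 20 cytosolic members 11 were lower and 4 higher at pH 6.0, where 25.1% of all tested genes were called lower and 21.9% higher. The count of higher cytosolic members is near that share. Of the 12 listed ATF4 targets 10 were lower, with a median log2 difference of -0.58, against -0.00 over all genes tested. Of the 16 mitochondrial members 5 were higher and 3 lower, near the 47.0% of all tested genes called in either direction. Their median was 0.09, which ranged from 0.05 under scaling by total counts to 0.20 with a filter of 5 CPM. This comparison and the one over time at pH 7.4 share the libraries of pH 7.4 at 6 h, so a high value in those libraries enters both.

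AARS1 had 709.5, 707 and 746 CPM in the pH 7.4 libraries at 6 h and 407, 397 and 420.0 CPM in the pH 6.0 libraries, a log2 difference of -0.82 ± 0.08 (adjusted p = 1.02e-08). Its level at pH 6.0 and 6 h was also below all 3 libraries of pH 7.4 at 3 h, at 521 to 579 CPM. WARS1 had 192, 192 and 201 CPM at pH 7.4 and 119, 117 and 109 CPM at pH 6.0 (-0.76 ± 0.08; 3.71e-08). MARS1, the methionyl enzyme, had 247, 247 and 258 CPM at pH 7.4 and 148, 163 and 143 CPM at pH 6.0 (-0.72 ± 0.07; 5.96e-08). For these members all libraries at pH 6.0 lay below all at pH 7.4, as they did for 29.7% of all tested genes. In the annotation used for names, exon bases of MARS1 also belong to ARHGAP9 (7.38%) and DDIT3 (5.05%) on the opposite strand. CARS1 was lower by -0.61 ± 0.07, SARS1 by -0.61 ± 0.08, GARS1 by -0.60 ± 0.08, TARS1 by -0.57 ± 0.07, EPRS1 and YARS1 each by -0.48 ± 0.08, and IARS1 by -0.45 ± 0.08. Each of these 10 calls held in all 12 fits that left out 1 library and under every other alternative setting.

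The 2 listed ATF4 targets that were not lower were LARS1 and NARS1. LARS1, whose protein also takes part in sensing leucine, had 235, 215 and 235 CPM at pH 7.4 and 262, 225 and 243 CPM at pH 6.0 (log2 0.09 ± 0.08; adjusted p = 0.389). NARS1 had 103, 93.3 and 91.3 CPM at pH 7.4 and 99.9, 94.9 and 94.2 CPM at pH 6.0 (0.01 ± 0.08; 0.965). In both genes the libraries of the groups overlapped.

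Among the other cytosolic members, KARS1, FARSA, VARS1 and FARSB were higher at pH 6.0 at 6 h. KARS1 had 143, 143 and 128 CPM at pH 7.4 and 191, 170.5 and 181 CPM at pH 6.0 (log2 0.39 ± 0.09; adjusted p = 8.63e-04). FARSA had 31.9, 32.3 and 31.8 CPM at pH 7.4 and 44.6, 38.9 and 41.8 CPM at pH 6.0 (0.38 ± 0.09; 9.6e-04). VARS1 had 173, 165 and 176 CPM at pH 7.4 and 218, 232 and 194 CPM at pH 6.0 (0.33 ± 0.09; 0.0063). In all of these the pH 6.0 libraries lay above the pH 7.4 libraries, as they did for 26.9% of all tested genes. The level of FARSA at pH 6.0 was still below its 46.8 to 52.8 CPM at pH 7.4 and 3 h. FARSB was higher by 0.24 ± 0.09 (adjusted p = 0.0388), a call lost without replicate 2 or 3 of pH 7.4 at 6 h, replicate 1 of pH 6.0 at 6 h or replicate 3 of pH 6.0 at 3 h, with adjusted p up to 0.2, and lost under scaling by total counts. TARS3 was lower by -0.31 ± 0.12 (0.0456), a call lost in 9 of 12 such fits, with adjusted p up to 0.23. RARS1, HARS1 and QARS1 did not pass, at 0.14 ± 0.10, 0.03 ± 0.09 and 0.14 ± 0.08.

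**Figure D3:**
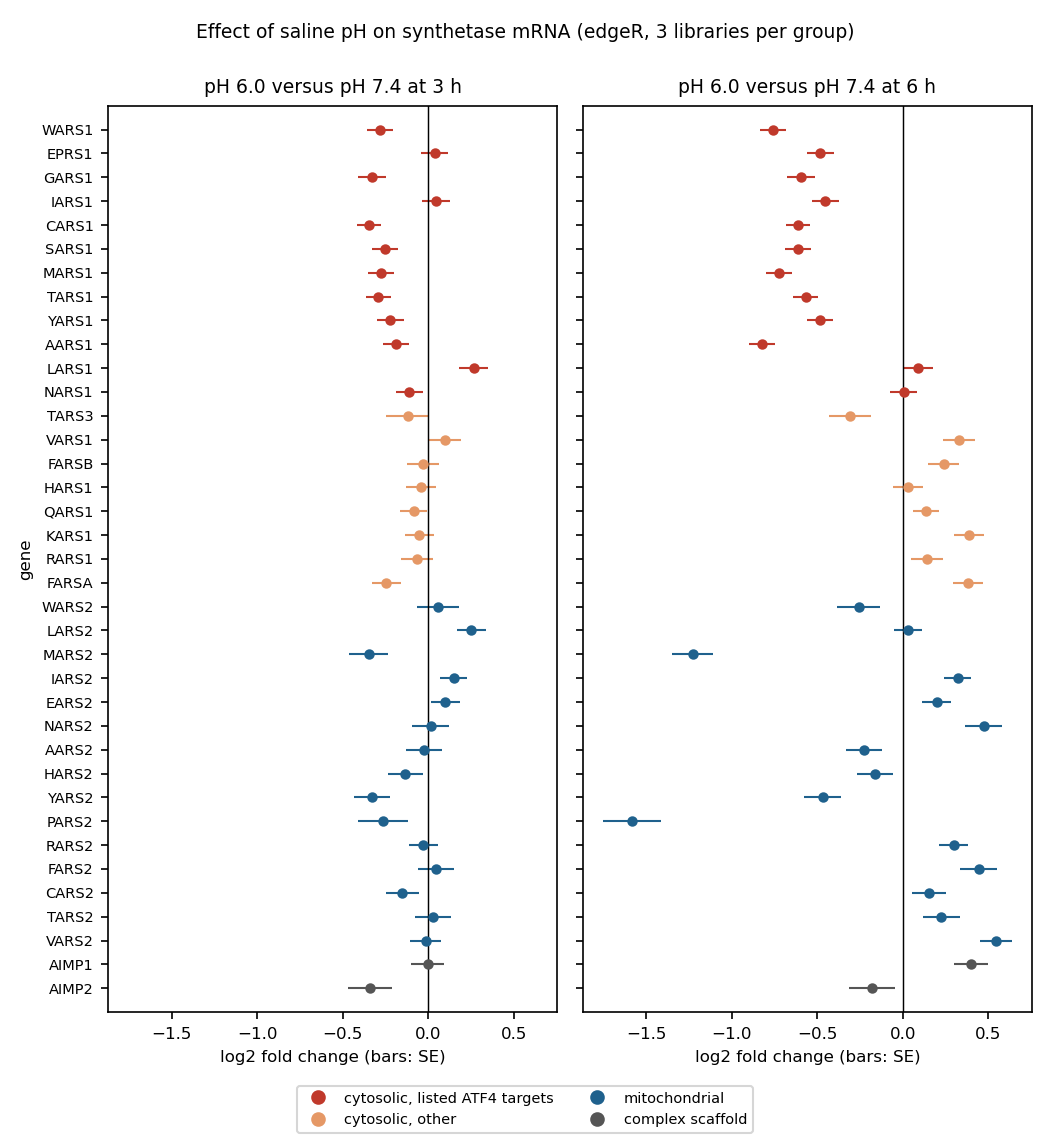
Points give the log2 fold change of each member at pH 6.0 against pH 7.4, at 3 h (left) and 6 h (right), with the standard error as bars, from 3 libraries per group; colour gives the group of the gene (SARS2 is left out). At 6 h the 12 listed ATF4 targets run from -0.82 to 0.09, the 8 other cytosolic genes from -0.31 to 0.39, and PARS2 (-1.58) and MARS2 (-1.23) lie furthest to the left.

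Of all members, PARS2 and MARS2, both mitochondrial, had the largest differences with pH at 6 h. PARS2 had 7.38, 6.82 and 6.94 CPM at pH 7.4 and 2.72, 2.12 and 2.25 CPM at pH 6.0, a 2.99-fold lower level (log2 -1.58 ± 0.17; adjusted p = 1.18e-07). MARS2, which charges the mitochondrial methionine tRNA, had 26.7, 25.5 and 27.0 CPM at pH 7.4 and 13.6, 10.7 and 9.55 CPM at pH 6.0, a 2.34-fold lower level (-1.23 ± 0.12; 2.88e-08). In both genes the pH 6.0 libraries at 6 h were the lowest of all 12 libraries. YARS2, the tyrosyl enzyme, had 26.9, 31.7 and 26.6 CPM at pH 7.4 and 20.8, 20.7 and 20.1 CPM at pH 6.0 (-0.47 ± 0.11; 9.72e-04).

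The mitochondrial members that were higher at pH 6.0 at 6 h were VARS2, NARS2, FARS2, IARS2 and RARS2, the valyl, asparaginyl, phenylalanyl, isoleucyl and arginyl enzymes. VARS2 had 36.3, 31.5 and 30.7 CPM at pH 7.4 and 48.6, 45.5 and 49.5 CPM at pH 6.0 (log2 0.54 ± 0.09; adjusted p = 5.39e-05). NARS2 had 28.7, 27.5 and 24.1 CPM at pH 7.4 and 37.3, 34.0 and 40.3 CPM at pH 6.0 (0.47 ± 0.11; 0.00114). In both genes the pH 6.0 libraries lay above the pH 7.4 libraries, as they did for 26.9% of all tested genes. NARS2 at pH 6.0 and 6 h also lay above all libraries of both 3 h groups. FARS2 was higher by 0.44 ± 0.11, IARS2 by 0.32 ± 0.08 and RARS2 by 0.30 ± 0.09. All 8 mitochondrial calls held in the 12 fits that left out 1 library, and that of RARS2 was lost under a correction for gene length. AARS2, CARS2, EARS2, HARS2, LARS2, TARS2 and WARS2 did not pass, with log2 differences from -0.26 to 0.23. The scaffold AIMP1 had 35.0, 29.8 and 30.1 CPM at pH 7.4 and 44.6, 41.2 and 39.3 CPM at pH 6.0 (0.40 ± 0.10; 0.00192), and AIMP2 did not pass (-0.18 ± 0.13).

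**Figure D4:**
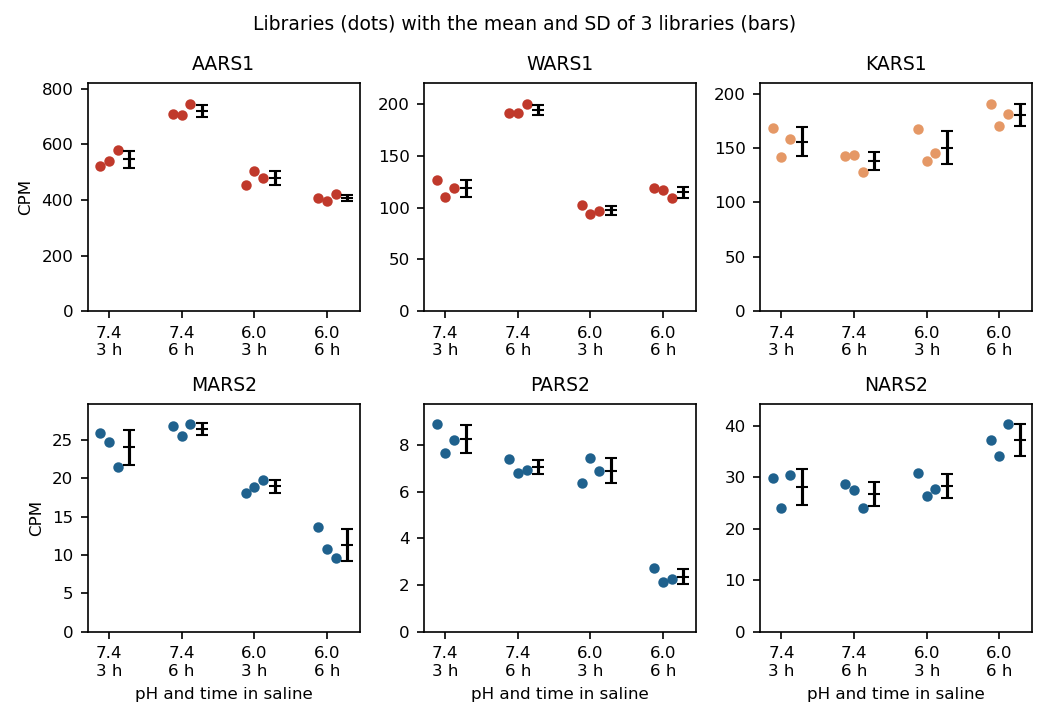
CPM of 6 members in each library (dots) by pH and time in saline, with the mean and SD of 3 libraries (bars). AARS1 and WARS1 are highest at pH 7.4 and 6 h, KARS1 and NARS2 are highest at pH 6.0 and 6 h, and PARS2 falls to 2.12 to 2.72 CPM and MARS2 to 9.55 to 13.6 CPM in the pH 6.0, 6 h libraries.

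At 3 h the differences with pH were smaller. Of the 20 cytosolic members 8 were lower and 1 higher at pH 6.0, where 9.26% of all tested genes were called lower and 9.53% higher. Of the 12 listed ATF4 targets 7 were lower and 1 higher, with a median log2 difference of -0.24, against -0.00 over all genes tested. CARS1 had 148, 158 and 159 CPM at pH 7.4 and 120.3, 120.2 and 126 CPM at pH 6.0 (-0.35 ± 0.07; adjusted p = 0.00168). TARS1, the threonyl enzyme, had 212, 192 and 211 CPM at pH 7.4 and 167, 169.9 and 165 CPM at pH 6.0 (-0.29 ± 0.07; 0.00706). GARS1 had 330.0, 273 and 319 CPM at pH 7.4 and 252, 238 and 244 CPM at pH 6.0 (-0.33 ± 0.08; 0.00752). In these genes the pH 6.0 libraries lay below the pH 7.4 libraries, as they did for 16.3% of all tested genes. Their calls held in all 12 fits that left out 1 library.

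WARS1 at log2 -0.28 ± 0.08, MARS1 at -0.28 ± 0.07, SARS1 at -0.25 ± 0.08, FARSA at -0.25 ± 0.08 and YARS1 at -0.22 ± 0.08 completed the 8 at 3 h. The count of 8 fell to 4 without replicate 1 or replicate 3 of pH 7.4 at 3 h, and to 3 without replicate 2 or replicate 3 of pH 6.0 at 3 h. AARS1 had 521, 539 and 579 CPM at pH 7.4 and 455, 503 and 478 CPM at pH 6.0 and did not pass (-0.19 ± 0.08; adjusted p = 0.0796), although its libraries did not overlap. EPRS1 at 0.04 ± 0.08 and IARS1 at 0.05 ± 0.08 showed no detectable difference at 3 h. LARS1 went the other way, with 186, 178 and 192 CPM at pH 7.4 and 204, 249 and 216 CPM at pH 6.0 (0.27 ± 0.08; 0.03), a call lost without replicate 1 or 2 of pH 7.4 at 3 h or replicate 2 or 3 of pH 6.0 at 3 h, with adjusted p up to 0.198, and lost under scaling by total counts. Of the 8 cytosolic members lower at 3 h, 7 were lower at 6 h too. The exception was FARSA, which was higher at 6 h. The calls of FARSA and YARS1 at 3 h were kept in 3 and 2 of 12 fits that left out 1 library, with adjusted p up to 0.154 and 0.208.

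Of the 16 mitochondrial members at 3 h, YARS2 and MARS2 were lower at pH 6.0 and LARS2 was higher, near the 18.8% of all tested genes called in either direction. MARS2 had 25.9, 24.7 and 21.5 CPM at pH 7.4 and 18.1, 18.9 and 19.8 CPM at pH 6.0 (log2 -0.35 ± 0.12; adjusted p = 0.0374). YARS2 had 35.8, 31.5 and 29.1 CPM at pH 7.4 and 27.8, 25.0 and 24.0 CPM at pH 6.0 (-0.33 ± 0.10; 0.03). LARS2 had 39.5, 37.6 and 41.0 CPM at pH 7.4 and 47.0, 49.1 and 44.4 CPM at pH 6.0 (0.25 ± 0.08; 0.0403). The groups did not overlap in these genes, where 16.3% of all tested genes lay wholly below at pH 6.0 and 16.7% wholly above. Each call was lost in some fits with 1 library fewer: the count of 2 lower members fell to 0 without replicate 1 of pH 7.4 or replicate 2 or 3 of pH 6.0 at 3 h, and to 1 without replicate 2 of pH 7.4 or replicate 1 of pH 6.0 at 3 h. The call of LARS2 was lost in 8 of 12 fits, with adjusted p up to 0.157. PARS2 had -0.27 ± 0.15 (adjusted p = 0.21), and neither scaffold passed.

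Between 3 h and 6 h in acid saline 6 cytosolic synthetases rose, and PARS2 and MARS2 fell. Of the 20 cytosolic members 6 were higher and 1 lower at 6 h, where 8.64% of all tested genes were called higher and 10.9% lower. The higher ones were GARS1 (log2 0.35 ± 0.08), NARS1 (0.33 ± 0.08), CARS1 (0.32 ± 0.07), KARS1 (0.26 ± 0.09), WARS1 (0.24 ± 0.08) and SARS1 (0.23 ± 0.08). NARS1 had 76.3, 76.7 and 77.1 CPM at 3 h and 99.9, 94.9 and 94.2 CPM at 6 h, without overlap. Of the 6 higher members, 5 had also risen at pH 7.4, and the exception was KARS1. The calls of GARS1, NARS1 and CARS1 held in every fit without a library, while the count of 6 fell to 3 without replicate 2 or 3 of pH 6.0 at 3 h, without replicate 1 of pH 6.0 at 6 h, and under scaling by total counts. AARS1 was the member that fell (-0.23 ± 0.08; adjusted p = 0.0345), a call lost in 7 of 12 fits, with adjusted p up to 0.134. The median over the 12 listed ATF4 targets was 0.18, or 0.10 under scaling by total counts, and that over the 8 other cytosolic members was 0.07, or -0.02 under that scaling.

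PARS2 had 6.38, 7.44 and 6.89 CPM at 3 h and 2.72, 2.12 and 2.25 CPM at 6 h in acid saline (log2 -1.55 ± 0.17; adjusted p = 6.9e-07). MARS2 went from 18.1, 18.9 and 19.8 CPM to 13.6, 10.7 and 9.55 CPM (-0.75 ± 0.12; 1.38e-04). Both calls held in every alternative fit, and at pH 7.4 neither gene passed the test over the same interval (-0.23 ± 0.14 and 0.13 ± 0.11). YARS2 fell by -0.32 ± 0.11 (0.0398), lost in 8 of 12 fits with adjusted p up to 0.19. NARS2 rose by 0.39 ± 0.11 (0.0147), a call lost without replicate 2 or 3 of pH 6.0 at 3 h or replicate 3 of pH 6.0 at 6 h, with adjusted p up to 0.0672. AIMP1 rose from 31.0, 33.7 and 33.0 CPM to 44.6, 41.2 and 39.3 CPM (0.36 ± 0.10; 0.0128), a call lost under scaling by total counts.

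**Figure D5:**
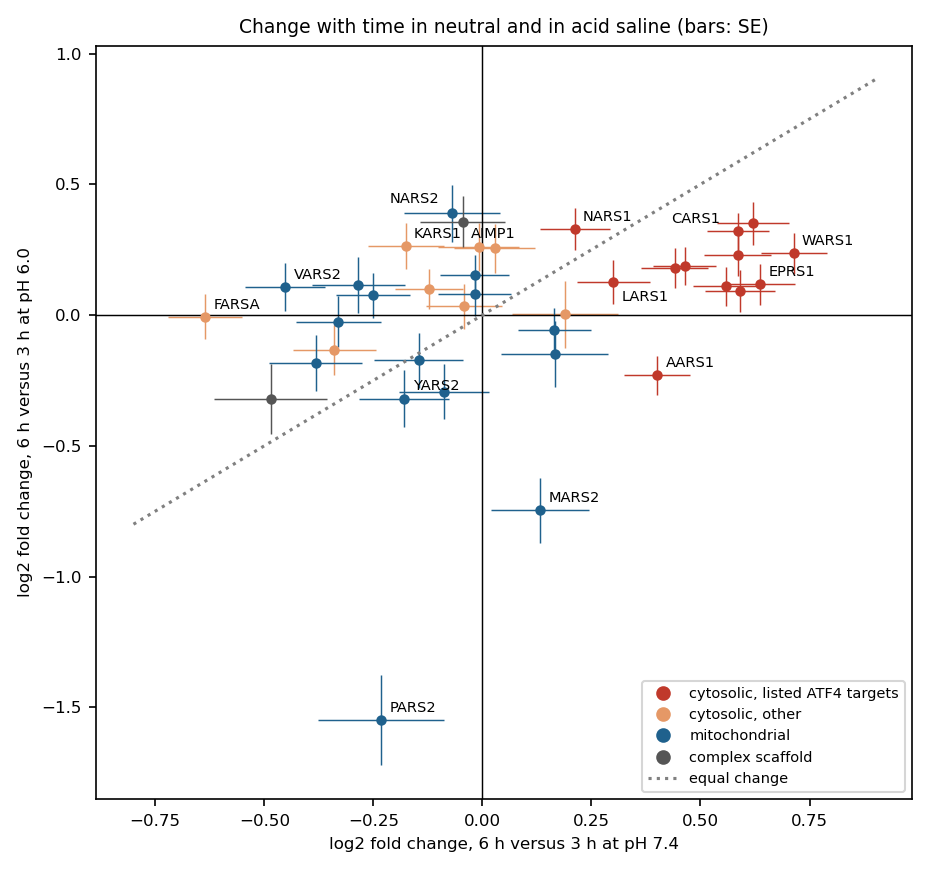
Log2 fold change from 3 h to 6 h at pH 7.4 (horizontal) and at pH 6.0 (vertical) for 37 members, with standard errors as bars and a dotted line of equal change (SARS2 is left out). The 12 listed ATF4 targets lie at 0.21 to 0.71 on the horizontal axis, most of them below the line, while PARS2 (-1.55) and MARS2 (-0.75) lie far down the vertical axis and FARSA (-0.64) furthest left on the horizontal one.

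The test of whether the pH effect itself changed between 3 h and 6 h (the interaction) called 17 of the 38 members. In either direction, 29.4% of all tested genes were called, and 41.8% when weaker genes were removed with a filter of 5 CPM. The count of members is near the latter share. Of the 17, 10 were lower, meaning a more negative pH effect at 6 h, where 16.3% of all tested genes were called lower and 13.1% higher. Of the 12 listed ATF4 targets 8 were called lower, with a median of -0.32 against -0.03 over all genes tested. AARS1 had the largest such shift among cytosolic members, at log2 -0.63 ± 0.11 (adjusted p = 1.99e-04), followed by EPRS1 at -0.52 ± 0.11, IARS1 at -0.50 ± 0.11, WARS1 at -0.48 ± 0.11 and MARS1 at -0.45 ± 0.11. These 5 calls held in all 12 fits that left out 1 library. FARSA shifted by 0.63 ± 0.12 (6.68e-04) and KARS1 by 0.44 ± 0.12 (0.0102), in the other direction, and both calls held as well, that of KARS1 not under a correction for gene length.

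Among mitochondrial members PARS2 shifted by log2 -1.32 ± 0.23 (adjusted p = 2.26e-04) and MARS2 by -0.88 ± 0.17 (5.81e-04), so the lower level of both at pH 6.0 was larger at 6 h than at 3 h. VARS2 shifted by 0.56 ± 0.13 (0.00298). These 3 calls held in every fit that left out 1 library. NARS2 at 0.46 ± 0.15, FARS2 at 0.40 ± 0.15 and RARS2 at 0.33 ± 0.12 were called too, but the count of 4 higher members fell to 1 without replicate 1 or 3 of pH 7.4 at 3 h, replicate 3 of pH 7.4 at 6 h, or replicate 2 or 3 of pH 6.0 at 3 h, and to 2 without replicate 2 of either 6 h group. Among cytosolic members the count of 2 higher rose to 5 without replicate 2 of pH 7.4 at 3 h. The count of 8 lower fell to 5 without replicate 3 of pH 7.4 at 3 h, replicate 1 or 3 of pH 6.0 at 3 h, or replicate 1 or 2 of pH 6.0 at 6 h.

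The multi-tRNA synthetase complex, which joins several cytosolic enzymes around AIMP1 and AIMP2, has 9 members here. At 6 h 3 of them were lower at pH 6.0 (EPRS1, IARS1 and MARS1) and 2 were higher (KARS1 and AIMP1), while LARS1, QARS1, RARS1 and AIMP2 did not pass; these counts are near the 25.1% of all tested genes called lower and the 21.9% called higher. QARS1 had 200.1, 206 and 193 CPM at pH 7.4 and 221, 209 and 228 CPM at pH 6.0 (log2 0.14 ± 0.08; adjusted p = 0.157). Its pH 6.0 libraries lay above its pH 7.4 libraries, as for 26.9% of all tested genes. Over time in neutral saline 4 rose (EPRS1, IARS1, MARS1 and LARS1) and 2 fell (RARS1 and AIMP2), where 17.2% of all tested genes were called higher and 14.4% lower. GARS1 and KARS1, the enzymes that serve both compartments, differed with pH at 6 h in opposite directions, at -0.60 ± 0.08 and 0.39 ± 0.09. HARS1 and QARS1 passed no test in any of the 5 comparisons, and neither did AARS2, EARS2, HARS2, WARS2 and SARS2.

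Among the enzymes with a partner gene in the other compartment, serine left out, the ratio of the cytosolic to the mitochondrial mRNA varied most across the groups for EPRS1 over PARS2, the proline pair, with 3.91 times between the lowest and the highest group mean. The RPKM of EPRS1 was 13.8 ± 0.568 times that of PARS2 at pH 7.4 and 3 h, 17.0 ± 0.452 times at pH 6.0 and 3 h, 25.2 ± 1.64 times at pH 7.4 and 6 h, and 54.1 ± 3.77 times at pH 6.0 and 6 h (SD, n = 3), so this ratio was highest where PARS2 was lowest. Threonine, cysteine and methionine followed, with 2.24, 2.16 and 1.92 times between the lowest and the highest group. The RPKM of TARS1 was 3.86 ± 0.110 times that of TARS2 at pH 7.4 and 3 h, 6.98 ± 0.526 times at pH 7.4 and 6 h, and 4.01 ± 0.316 times at pH 6.0 and 6 h (SD, n = 3). For CARS1 over CARS2 the ratios were 3.00 ± 0.218, 5.66 ± 0.388 and 3.35 ± 0.283 in the same order. The pH 7.4 libraries at 6 h lay above all others in both ratios. For MARS1 over MARS2 they were 6.01 ± 0.738, 7.997 ± 0.205 and 11.6 ± 2.05, highest at pH 6.0 and 6 h as for the proline pair. EPRS1 over EARS2, the glutamate pair, had ratios of 3.89 ± 0.118, 6.13 ± 0.357 and 3.83 ± 0.138 in that order. For histidine, HARS1 over HARS2 was 1.61 ± 0.0672 at pH 7.4 and 3 h and 1.99 ± 0.218 at pH 6.0 and 6 h; 11.7% of the exon bases of HARS2 also belong to HARS1 on the opposite strand. IARS1 and IARS2 were nearly level at 1.15 ± 0.0934 at pH 7.4 and 3 h, and reached 1.75 ± 0.0135 at pH 7.4 and 6 h.

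In each of the 4 comparisons of pH or time, most other listed genes of the ATF4 amino acid response passed the test. Of 31 listed genes that are no synthetases, 18 were higher and 1 lower at 6 h than at 3 h in neutral saline, with a median log2 change of 0.47, where 17.2% of all tested genes were called higher and 14.4% lower. At pH 6.0 against pH 7.4, 21 were lower and 1 higher at 3 h (median -0.51), where 9.26% of all tested genes were called lower and 9.53% higher. At 6 h 22 were lower and 4 higher (median -0.63), where 25.1% were called lower and 21.9% higher. SLC7A11, the cystine transporter, rose by log2 1.71 ± 0.11 with time at pH 7.4, from a mean of 98.5 to 321 CPM. CTH, which makes cysteine from cystathionine, rose by 1.25 ± 0.10. SLC38A2, a transporter of neutral amino acids, had a mean of 1330.1 CPM at pH 7.4 and 248 CPM at pH 6.0 at 6 h, and PSAT1, an enzyme of serine synthesis, had 239 and 89.9 CPM. The 4 listed genes that were higher at pH 6.0 at 6 h were PPP1R15A, DDIT4, ALDH18A1 and DDIT3, at log2 1.26 ± 0.08, 1.12 ± 0.10, 0.97 ± 0.09 and 0.63 ± 0.11. The last 3 belong to the 31 listed genes and are named for this comparison after their values were seen. PPP1R15A, which guides the phosphatase of eIF2 and so restores translation, had means of 209 CPM at pH 7.4 and 501 CPM at pH 6.0 (adjusted p = 1.69e-11). ALDH18A1, an enzyme of proline synthesis, was also the 1 gene higher at pH 6.0 at 3 h (0.34 ± 0.09) and the 1 that fell with time at pH 7.4 (-0.61 ± 0.09).

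With time at pH 6.0, 16 genes of this list were higher, with a median of 0.31, where 8.64% of all tested genes were called higher. PPP1R15A rose from a mean of 143 CPM at 3 h to 501 CPM at 6 h at pH 6.0 (log2 1.81 ± 0.08), DDIT4 rose by 1.23 ± 0.10 and DDIT3 by 1.24 ± 0.12. DDIT3, with means of 13.3 and 31.6 CPM, shares 355 exon bases with MARS1 on the opposite strand. Whether counting used strand is not given in the sources used here. ATF4 mRNA itself had means of 349 CPM at pH 7.4 and 228 CPM at pH 6.0 at 3 h (-0.61 ± 0.08; adjusted p = 1.91e-05). At 6 h it had 359 and 316 CPM and did not pass (-0.19 ± 0.08; 0.0695). From 3 h to 6 h it rose at pH 6.0 (0.47 ± 0.08; 2.89e-04) and not detectably at pH 7.4 (0.04 ± 0.08). Beside these, the listed synthetases called for pH were 7 of 12 lower and 1 higher at 3 h, and 10 lower at 6 h. For time, 12 were higher at pH 7.4, and 5 were higher and 1 lower at pH 6.0. In the same order, 18.8%, 47.0%, 31.6% and 19.5% of all tested genes were called in either direction. ATF4 protein was not measured.

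Among 19 tested partners of aminoacyl-tRNA, 6 were higher and 4 lower at pH 6.0 at 6 h, near the 21.9% and 25.1% of all tested genes. With time at pH 7.4, 1 was higher and 5 were lower, where 17.2% of all tested genes were called higher and 14.4% lower. XPOT, the export receptor of tRNA, which is also on the ATF4 list, had means of 242 CPM at 3 h and 426 CPM at 6 h at pH 7.4 (log2 0.82 ± 0.08), and 254 CPM at pH 6.0 and 6 h (-0.74 ± 0.08 against pH 7.4). EEF1A1, the elongation factor that carries loaded tRNA, had 7275 CPM at pH 7.4 and 10331 CPM at pH 6.0 at 6 h (0.51 ± 0.09), and its exchange factor EEF1B2 differed by 0.60 ± 0.14. GATB, a subunit of the amidotransferase that completes glutaminyl-tRNA in mitochondria, was higher by 0.48 ± 0.12. EEF1D, another subunit of the exchange factor, had 162 CPM at pH 7.4 and 161 CPM at pH 6.0 at 6 h. At 3 h it was the 1 partner lower at pH 6.0 (-0.25 ± 0.08), and with time at pH 6.0, 2 were higher and 1, TRNT1, which adds the CCA end of tRNA, was lower (-0.42 ± 0.13).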

How the data were processed

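RNA from 12 libraries was sequenced. The deposited tables hold, per Ensembl gene, a count of reads and an RPKM value, both computed by the authors before deposit; the submitters' processing notes name STAR, CASAVA and hg19. The sources used here do not give the counting program, the annotation or whether strand was used. A single length per gene reproduced 100.0% of the RPKM values (relative tolerance 1e-06), so RPKM served levels between genes and counts served all tests.

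Counts were tested with edgeR 4.0.16 in R 4.3.3: TMM factors, the default expression filter, 1 robust quasi-likelihood fit of 12 libraries in 4 groups (8 residual degrees of freedom), with Benjamini-Hochberg adjustment over 15630 genes; changed means adjusted p under 0.05. CPM use TMM-scaled totals, and the SE is the log2 fold change divided by the square root of F. The shares given for all tested genes include weakly expressed ones. With a filter of 5 CPM, 10907 genes were left, and larger shares were called in either direction. For pH these were 24.3% at 3 h and 59.0% at 6 h. For time they were 44.5% at pH 7.4 and 25.7% at pH 6.0, and for the interaction 41.8%. DESeq2 1.42.0 and the other alternatives are given in the closing section. No replicate was a copy of another (chi-square of count differences over degrees of freedom, 5.40 to 19.5). The procedure was tested on simulated counts.

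All members are named. Those given in every library have the smallest p per comparison and compartment, or were added after their values were seen. Other genes come from the lists: those with the smallest p, at most 4 per list and comparison, ATF4, and some that were named after their values were seen. Members and lists were chosen with earlier results of these data known. Names, exon overlap (GENCODE 29) and promoters (RefSeq) are of GRCh38, and 21 members share exon bases with another gene there. A stretch of 304 bases of CARS1 has a copy of 95.7% identity. Intervals and tests cover these libraries only.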

Additional observations from a re-analysis of the deposited data

Results flagged for a closer look

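For 17 members the pH effect (log2, pH 6.0 against pH 7.4) at 6 h differed from that at 3 h by the edgeR interaction test, at an adjusted p under 0.05. In cytosolic enzymes the difference of the effects was -0.63 for AARS1, -0.52 for EPRS1, -0.50 for IARS1, -0.48 for WARS1, -0.45 for MARS1, -0.36 for SARS1, -0.28 for TARS1 and -0.27 for CARS1. The last 2 were borderline: the call of TARS1 was lost in all 12 fits that left out 1 library and that of CARS1 in 11. It was 0.63 for FARSA and 0.44 for KARS1. In mitochondrial enzymes it was -1.32 for PARS2, -0.88 for MARS2, 0.56 for VARS2, 0.46 for NARS2, 0.40 for FARS2 and 0.33 for RARS2, and in the scaffold AIMP1 it was 0.40. FARSA is the member whose called pH effect had opposite signs at the 2 times, -0.25 at 3 h and 0.38 at 6 h. Its call at 3 h was borderline: it was kept in 3 of 12 fits that left out 1 library, with adjusted p up to 0.154. That call was also lost with a filter of 5 CPM and with a correction for gene length. No group had enough libraries for a check of single outlying values.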

How the results depend on the processing

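No member's called direction reversed under any alternative. At 6 h, pH 6.0 against pH 7.4, 10 of the 12 listed ATF4 targets were lower under every setting. Counts that moved by over 1.5 times were the following. At 3 h, the 1 higher cytosolic member and the 1 higher mitochondrial member became 0 under total counts, without a filter, with only the groups compared and against a fold change of 1.2. The 8 lower cytosolic members became 4 with only the groups compared, 5 with a gene length correction with or without the replicate block, and 0 against a fold change of 1.2; the 2 lower mitochondrial members became 0 under each of these. At 6 h, the fold change test gave 0 higher cytosolic and 2 higher mitochondrial members, and total counts gave 5 lower mitochondrial ones. With time at pH 7.4, the length correction gave 1 lower cytosolic and 3 lower mitochondrial members, and the fold change test 1 and 0. With time at pH 6.0, higher cytosolic members were 3 under total counts, 10 with the replicate block and length correction and 0 in the fold change test; lower ones were 0 without a filter and in the fold change test, which also gave 0 higher mitochondrial members. For the interaction, higher cytosolic members were 1 with the length correction and in the fold change test, lower ones 5 without a filter and 3 in the fold change test, and higher mitochondrial ones 2 under total counts or without a filter and 1 with the length correction, with or without the replicate block, and in the fold change test. The cause was not tested.

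Leaving out each library in turn, the counts higher and lower ranged as follows. For pH at 3 h they were 0 to 1 and 3 to 8 (cytosolic), and 0 to 1 and 0 to 2 (mitochondrial); for pH at 6 h, 3 to 5 and 10 to 11, and 5 to 7 and 3 to 4. For time at pH 7.4 they were 11 to 12 and 2 to 3, and 0 to 0 and 1 to 5; for time at pH 6.0, 3 to 9 and 0 to 1, and 0 to 1 and 2 to 3. For the interaction they were 2 to 5 and 5 to 7, and 1 to 4 and 2 to 2. Without replicate 2 of pH 7.4 at 6 h, the library with fibroblast markers, 10 cytosolic members were lower at pH 6.0 at 6 h and 11 rose with time at pH 7.4.

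Taken over all groups, replicate numbers showed no clear pairing of the libraries. Deviations of same-numbered libraries correlated from -0.13 to 0.23, over 0.1 in 2 of 18 pairs. A library correlated best with its own number in 14 of 36 cases. Between the 3 h groups the same-numbered correlations were 0.23, 0.09 and 0.05, so pairing is not excluded. With the replicate block 188 of 190 single results kept their call or lack of one and 2 gained one. Depth limits SARS2 most, with standard errors of 0.54 to 0.82 (log2), followed by PARS2 with 0.14 to 0.23.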
